A study of Mus musculus with 11 samples.

Results

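The genes described here were 58 components of TGF-beta and BMP signalling, chosen by symbol from the gene-level RNA-seq tables of mouse embryonic stem cells (mESCs) and mouse embryonic fibroblasts (MEFs) out of 34570 genes listed in either table. They fell into 15 roles that run from ligands and their latency proteins through receptors and SMADs to the ID targets and the secreted antagonists. The mESC table listed 56 of them and the MEF table listed 56. Gdf1 in both tables, Bmp5 in mESCs and Nodal in MEFs were not analysed here. After the filter on low counts 53 were tested in each cell type, since Bmp3, Gdf6 and Gdf10 in mESCs and Bmp8b, Gdf5 and Lefty2 in MEFs had too few reads.

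Ligands of this family are secreted dimers that bring together type I and type II serine/threonine kinase receptors. TGF-beta, activin and Nodal signal through SMAD2 and SMAD3, whereas BMPs and most GDFs signal through SMAD1, SMAD5 and SMAD9, and both sets of receptor SMADs enter the nucleus with SMAD4. Nodal and activin signalling has known roles in epiblast cells, BMP signalling with LIF in the self-renewal of stem cells in serum, and TGF-beta signalling in the matrix production of fibroblasts.

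The study asked how loss of ATXN7L3, the adaptor protein on which the histone H2B deubiquitylation enzymes USP22, USP27X and USP51 depend, alters transcripts in 2 cell types. Poly(A) RNA was sequenced from 2 wild-type (WT) and 3 Atxn7l3-/- mESC libraries and from 3 WT and 3 Atxn7l3-/- MEF libraries. All cells came from mice of a DBA/2 x C57BL/6 background with or without a germline null allele of Atxn7l3. The mESCs were derived from single blastocysts, were started on feeder cells and then kept without feeders in 15% serum with LIF, 1 uM PD0325901 (a MEK inhibitor) and 3 uM CH99021 (a GSK3 inhibitor). The MEFs were grown in 10% serum from E10.5 embryos without head and gastrointestinal tract. The study called the mutant cells MEF-like and described many of them as round. It reported that their RNA-seq profiles clustered with those of WT MEFs or fibroblasts, and it proposed that they belong to the fibroblast lineage. Because PD0325901 and CH99021 were in the medium of every mESC library and of no MEF library, medium and cell type cannot be told apart.

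The libraries held between 34515342 and 49602605 counts. Levels are given as CPM, which are counts per 1000000 counts of a library scaled by the trimmed mean of M values (TMM) within each cell type. Atxn7l3 itself was at 196 and 202 CPM in WT mESCs and between 0.831 and 3.33 CPM in Atxn7l3-/- mESCs. In MEFs it was between 86.4 and 117 CPM in WT and still between 55.4 and 73.3 CPM in the mutants, with an edgeR adjusted p of 0.071, so that the MEF groups are called here by their labels. Counts per gene do not show whether the reads left in the mutant MEFs lie in the deleted exons or outside them. The study reported that it could not detect ATXN7L3 protein in its Atxn7l3-/- MEFs. The Y-linked gene Ddx3y was under 3 CPM in Atxn7l3-/- mESC libraries 1 and 2 and in WT MEF library 3, and between 66.3 and 269 CPM in the other 8 libraries. The Y-linked genes Eif2s3y and Uty were likewise lowest in those libraries. Xist was at 336 CPM in WT MEF library 3 and at most 0.740 CPM in the other MEF libraries. Sex-linked expression thus differed between the mESC genotypes and between the MEF libraries of number 3, and its part in the results was not tested. The 8 pluripotency markers were above 1 CPM in every mESC library and the 8 fibroblast markers in every MEF library. The summed fibroblast markers were also between 271 and 392 CPM in Atxn7l3-/- mESCs against 25.8 to 99.3 CPM in WT mESCs. Most of that mutant sum was Col1a1 (141 to 189 CPM) and Col1a2 (82.5 to 132 CPM). Prrx1 reached at most 4.51 CPM, and Pdgfrb was between 4.28 and 8.12 CPM against 4.89 and 6.15 CPM in WT. The summed epithelial and mesothelial markers were between 2515 and 3715 CPM in labelled Atxn7l3-/- MEFs against 14.9 to 38.1 CPM in WT MEFs. Most of this mutant sum was the mesothelial genes Upk3b (1712 to 2294 CPM) and Msln (478 to 1191 CPM). The part of these other cell-type markers in the results below was not tested, and in bulk RNA fewer cells of a type and less RNA per cell cannot be told apart.

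In the WT cells, MEFs had higher levels than mESCs of most ligands, antagonists and matrix-bound regulators, whereas several receptors and SMADs, among them Tgfbr1, Bmpr1a, Smad2 and Smad4, did not pass the test. Between WT MEFs and WT mESCs, 36 of the 55 members tested were higher in MEFs and 4 were lower at an adjusted p of 0.05 or less (edgeR quasi-likelihood test, 1 fit of all 11 libraries). Over all genes tested, 26.8% were higher and 27.1% were lower, and the median log2 difference was 3.33 for the members and -0.0049 for all genes. All 6 antagonists, all 3 latent TGF-beta binding proteins, all 3 TGF-beta ligands and all 3 activin and inhibin subunits were among the 36. The 4 that were lower in MEFs were Gdf3 and Lefty2, ligands of the Nodal arm and its feedback, and the activin receptors Acvr1b and Acvr2b. The count of members higher in MEFs was between 30 and 38 when any 1 library was left out.

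Levels of different genes were compared as CPM per kb of merged exon, with TMM over all 11 libraries. In WT mESCs the highest ligands were Gdf3 at 52.5 ± 9.01 CPM per kb (SD, n = 2) and Nodal at 47.9 ± 0.536, while no TGF-beta ligand exceeded the 0.565 ± 0.0027 of Tgfb1. Bmp4, the highest BMP ligand in both cell types, was at 2.55 ± 0.144 CPM per kb in WT mESCs and at 78.8 ± 46.8 in WT MEFs (n = 3). In WT MEFs the highest ligand transcripts were Tgfb3 at 138 ± 37.1, a TGF-beta isoform known for palate and lung development, and Inhba at 107 ± 97.2, the activin A subunit. The spread between the 3 WT MEF libraries was wide for Inhba, from 17.7 to 211 CPM per kb, so its place beside Tgfb3 and Bmp4 was not resolved.

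Among the receptors, Bmpr1a, a type I receptor for BMPs, was the highest in both cell types, at 20.4 ± 0.673 CPM per kb in WT mESCs and 33.4 ± 7.05 in WT MEFs. The highest type II receptor differed, being Acvr2a in WT mESCs (4.77 ± 0.954) and Tgfbr2 in WT MEFs (21.4 ± 7.89). Smad4, the common partner SMAD, was nearly level between the cell types at 21.6 ± 0.359 and 23.6 ± 3.04 CPM per kb. Of the ID genes, whose helix-loop-helix proteins block differentiation factors, Id2 was the highest in mESCs (34.6 ± 17.6) and Id3 in MEFs (189 ± 84.4). Fstl1, a secreted follistatin-like protein, was the highest antagonist in both and the most abundant of all members in WT MEFs, at 599 ± 256 CPM per kb against 10.8 ± 4.60 in WT mESCs. With the listed median transcript length as the divisor, the highest member changed in 9 of the 30 combinations of role and cell type. It became, for instance, Bmp6 for the BMP ligands of mESCs and Tgfb2 for the TGF-beta ligands of MEFs. With that divisor Inhba (173 CPM per kb) and Tgfb2 (161) were above Tgfb3 (138) in WT MEFs.

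**Figure D1:**
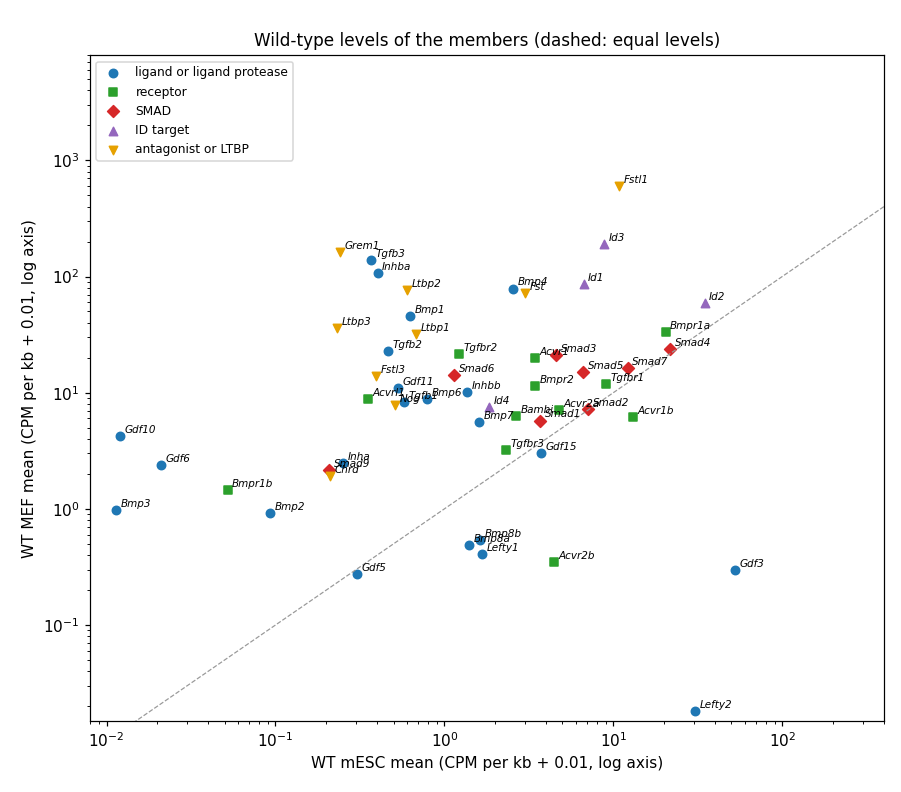
Mean level of each member in WT mESCs (horizontal axis, n = 2) and WT MEFs (vertical axis, n = 3), in CPM per kb of merged exon plus 0.01 on log axes, with symbols by role and a dashed line at equal levels. Most ligands, antagonists and latent TGF-beta binding proteins lie above the line, Smad4 and Smad2 lie near it, and Gdf3, Lefty2, Acvr2b and Acvr1b are among those below it.

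The first knockout comparison was within mESCs. Transcripts of the ligands Bmp7 and Gdf15, the protease Bmp1, the receptor SMAD Smad3, the BMP antagonist Chrd and the matrix protein Ltbp2 were upregulated in Atxn7l3-/- mESCs, and the inhibitory SMAD Smad7 and the BMP target Id3 were down-regulated. Thus 6 members rose and 2 fell of the 53 tested, where 3.08% of all genes rose and 3.88% fell. The median log2 fold change was -0.14 over the members and 0.04 over all genes, with 25 members above 0 and 28 below. These calls rested on few libraries. Without either WT library, or without Atxn7l3-/- library 1, edgeR called 0 members in either direction. At an unadjusted p under 0.05, 8 to 11 were then higher and 6 to 8 lower. Over all genes edgeR called 0 of 18568 without WT library 1 and 0 of 18748 without WT library 2. Without Atxn7l3-/- library 1 it called 0 higher and 3 lower of 17530 genes, so the loss was not particular to the members. A single fit of all 11 libraries called 1 member higher and 2 lower, and 144 genes higher and 302 lower of 19326.

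Id3, a direct target of the BMP receptor SMADs, fell most among the called members. It was at 19.0 and 16.3 CPM in the WT libraries and at 3.22, 3.84 and 1.69 CPM in the Atxn7l3-/- libraries, which left 16.5% of the WT mean. The groups did not overlap, and the log2 fold change was -2.60 ± 0.42 (SE, n = 2 and 3, edgeR adjusted p = 0.024). Smad7, an inhibitory SMAD that TGF-beta and BMP signals induce as feedback, was at 68.5 and 54.5 CPM in WT and at 22.6, 27.6 and 26.3 CPM in Atxn7l3-/- mESCs. Every mutant library was below both WT libraries by about the same amount, a log2 fold change of -1.27 ± 0.22 (adjusted p = 0.027).

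Smad3, which carries the TGF-beta, activin and Nodal signal, went the other way from Smad7. Its level was 27.9 and 28.8 CPM in WT mESCs and 62.7, 63.2 and 55.2 CPM in Atxn7l3-/- mESCs, with a log2 fold change of 1.09 ± 0.20 (adjusted p = 0.030). The libraries of each genotype were close together, and the other 4 receptor SMADs had log2 fold changes between -0.70 and -0.52, none of them past the threshold. Smad1, Smad2, Smad5, Smad9 and Smad4 were nevertheless lower in every Atxn7l3-/- library than in either WT library. At any size of change, this held for 19 of the 53 members and for 4466 of all 17800 genes tested.

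Of the ligands, Bmp7, known for its roles in kidney and eye development, was at 6.55 and 7.70 CPM in WT and at 31.8, 26.3 and 40.8 CPM in Atxn7l3-/- mESCs. The lowest mutant library was thus well above the higher WT library (log2 fold change 2.21 ± 0.30, adjusted p = 0.021). Gdf15, a distant member of the family that is induced by cell stress and acts on the receptor GFRAL, was at 8.51 and 6.84 CPM in WT and at 40.7, 24.2 and 41.0 CPM in the mutants. Its log2 fold change of 2.20 ± 0.33 (adjusted p = 0.023) was close to that of Bmp7. Bmp1, which despite its name is a metalloprotease that processes procollagen and cleaves chordin, rose from 7.30 and 4.89 CPM to 22.0, 21.7 and 21.4 CPM. The 3 mutant libraries were nearly equal, and the log2 fold change was 1.83 ± 0.31 (adjusted p = 0.027).

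Chrd, which encodes the BMP-binding antagonist chordin, rose from 1.25 and 1.54 CPM in WT to 8.12, 5.60 and 8.49 CPM in Atxn7l3-/- mESCs. This was the largest increase among the called members (log2 fold change 2.41 ± 0.44, adjusted p = 0.030). Ltbp2, a microfibril-associated protein of the latent TGF-beta binding protein family, was at 4.49 and 6.22 CPM in WT and at 14.1, 17.5 and 13.6 CPM in the mutants. Its log2 fold change was 1.49 ± 0.34 with an adjusted p of 0.044, and correction for GC content moved the adjusted p to 0.069. Of the 6 that rose, Bmp1, Chrd, Ltbp2 and Smad3 were also among the members with higher levels in WT MEFs than in WT mESCs, while Bmp7 and Gdf15 were not. This is near the share of all members, of which 36 of 55 were higher in WT MEFs.

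The promoter sequences of 3 of these genes are shown because Id3 had the largest fall among the called members in mESCs and because the knockout effect on Gdf15 and Chrd differed between the 2 cell types. They run from 250 bases before to 50 bases after the RefSeq start (build GRCm38.p6), and capitals mark CAGAC or its reverse complement GTCTG, a core of SMAD3 and SMAD4 binding, and GGCGCC, a GC-rich site known for BMP SMADs. The motifs share only a C at their ends, so that they could overlap by 1 base.
Id3, chr4:136143572-136143871, plus strand: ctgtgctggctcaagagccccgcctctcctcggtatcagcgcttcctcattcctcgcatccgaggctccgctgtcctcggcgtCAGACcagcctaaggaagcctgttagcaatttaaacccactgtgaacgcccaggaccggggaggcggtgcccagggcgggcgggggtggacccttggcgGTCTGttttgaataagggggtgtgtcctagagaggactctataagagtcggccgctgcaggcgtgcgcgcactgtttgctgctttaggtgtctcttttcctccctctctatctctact
Gdf15, chr8:70632407-70632706, minus strand, the upstream of 2 listed starts: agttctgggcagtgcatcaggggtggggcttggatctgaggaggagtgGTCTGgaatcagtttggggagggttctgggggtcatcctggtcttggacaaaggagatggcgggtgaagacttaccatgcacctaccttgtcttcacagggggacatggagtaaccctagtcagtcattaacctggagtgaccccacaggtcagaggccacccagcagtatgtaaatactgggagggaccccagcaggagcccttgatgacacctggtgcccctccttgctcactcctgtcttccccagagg
Chrd, chr16:20732877-20733176, plus strand: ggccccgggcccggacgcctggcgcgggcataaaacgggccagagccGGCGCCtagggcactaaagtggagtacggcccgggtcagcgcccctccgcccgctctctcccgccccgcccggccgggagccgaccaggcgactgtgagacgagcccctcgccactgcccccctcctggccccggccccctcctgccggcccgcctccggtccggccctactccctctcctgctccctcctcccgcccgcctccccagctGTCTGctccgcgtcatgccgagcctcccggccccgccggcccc

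CAGAC or its reverse was found at 2 places in the Id3 window and at 1 place each in the Gdf15 and Chrd windows, and GGCGCC at 1 place in the Chrd window. Such matches were common: 49.6% of all 32851 listed promoter windows held CAGAC on either strand and 11.9% held GGCGCC. Of the 47 windows listed for 39 of the members, 26 held CAGAC and 13 held GGCGCC. A match is a description of the letters and not of binding. In mm10, Id3 is listed on chromosome 4 (136143497 to 136145755), Gdf15 on chromosome 8 (70629393 to 70632456) and Chrd on chromosome 16 (20733127 to 20742384). The Id3 window lies wholly within the listed Id3 interval, because its RefSeq start is downstream of the first base of that interval.

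**Figure D2:**
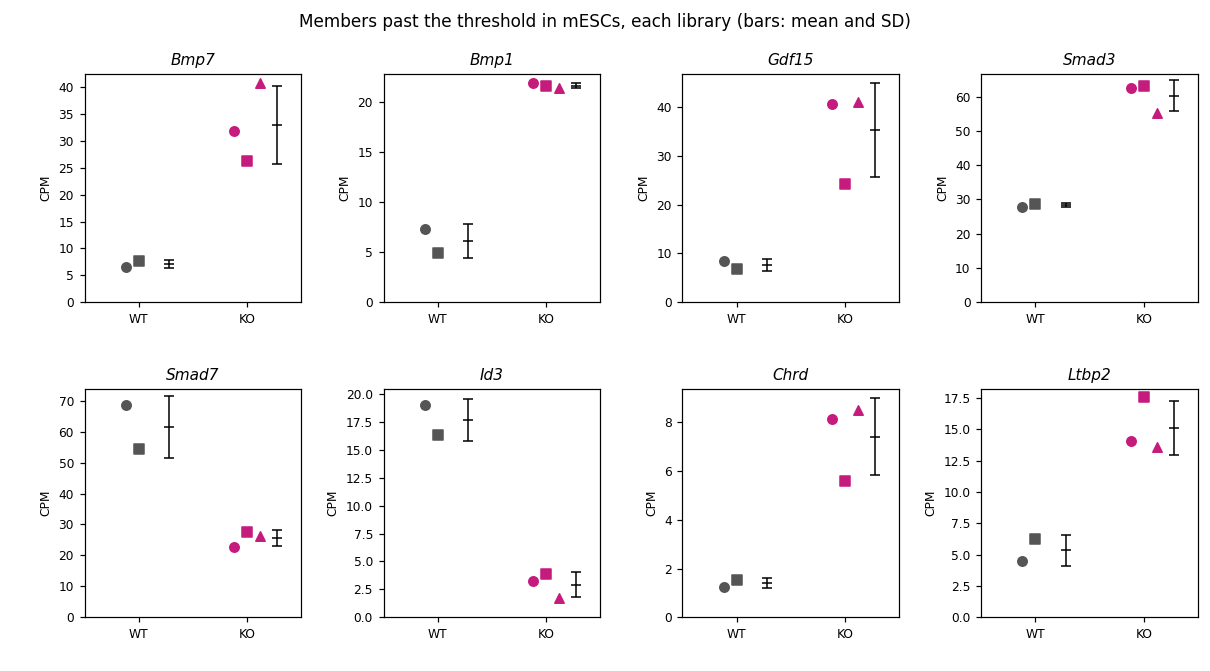
Level in CPM of the 8 members past the threshold in mESCs, 1 panel per gene with its own axis from 0, for WT (grey, n = 2) and Atxn7l3-/- libraries (pink, n = 3); circles, squares and triangles mark libraries 1, 2 and 3, and bars give the mean and SD. Smad7 and Id3 are lower and the other 6 higher in every Atxn7l3-/- library than in either WT library.

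A further 11 members differed at least 2-fold between non-overlapping mESC groups without passing the test. Together with the called members, 10 of 53 were higher and 9 were lower in this way, where 10.8% of all genes were higher and 11.4% were lower. Nodal and Bmp4 were among the lower ones. Nodal, the epiblast ligand that signals through SMAD2 and SMAD3, was at 112 and 111 CPM in WT and at 24.9, 60.2 and 21.6 CPM in Atxn7l3-/- mESCs (log2 fold change -1.65 ± 0.42, adjusted p = 0.056). Bmp4, the BMP ligand through which serum-type self-renewal is known to act, was at 6.21 and 6.56 CPM in WT and at 0.241, 0.310 and 1.64 CPM in the mutants (-3.12 ± 0.81, adjusted p = 0.059). Both stayed short of the threshold although the groups were apart, with the third mutant library closest to WT for Bmp4 and the second for Nodal.

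The feedback inhibitor Lefty1 was at 1.59 and 4.84 CPM in WT and at 1.26, 1.55 and 0.580 CPM in the mutants (adjusted p = 0.17). Its near-identical neighbour Lefty2 overlapped between the genotypes, at 52.0 and 124 CPM against 65.2, 57.9 and 6.57 CPM. Reads that match both Lefty genes could be counted to either or to neither, so the split between them is uncertain. Inhbb, an activin B subunit, was at 8.27 and 4.59 CPM in WT and at 1.77, 3.34 and 1.93 CPM in the mutants (-1.45 ± 0.49, adjusted p = 0.10). The ligand Bmp2, also among the lower ones, had few reads, with at most 17 counts in any mESC library. It was at 0.365 and 0.294 CPM in WT and at 0, 0.119 and 0.0528 CPM in the mutants (-2.40 ± 0.86, adjusted p = 0.12).

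Besides Id3, the BMP targets Id1 and Id4 were lower in every mutant mESC library. Id1 was at 8.51 and 8.69 CPM in WT and at 4.93, 4.004 and 2.27 CPM in the mutants (-1.20 ± 0.43, adjusted p = 0.12), and Id4 was at 7.13 and 8.47 CPM against 3.9995, 2.57 and 4.62 CPM (-1.06 ± 0.41, adjusted p = 0.13). The fourth member, Id2, did not share this pattern: it was at 130 and 59.6 CPM in WT and at 175, 302 and 120 CPM in the mutants, which overlapped (1.07 ± 0.46, adjusted p = 0.16). Thus 1 of the 4 ID genes fell past the threshold, 2 were lower without passing it and 1 was not lower.

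The 4 higher ones were Tgfb3, Ltbp3, Inha and Grem1. Tgfb3 was at 1.07 and 1.63 CPM in WT and at 4.24, 6.32 and 4.80 CPM in Atxn7l3-/- mESCs (1.92 ± 0.47, adjusted p = 0.054). Ltbp3, which helps to secrete latent TGF-beta, was at 1.31 and 3.15 CPM in WT and at 6.98, 5.96 and 10.1 CPM in the mutants (1.78 ± 0.53, adjusted p = 0.077). The inhibin alpha subunit Inha was at 0.344 and 0.453 CPM against 1.29, 0.977 and 1.77 CPM (1.75 ± 0.55, adjusted p = 0.087). Grem1, a BMP antagonist of mesenchyme, was at 0.107 and 1.99 CPM against 2.59, 4.86 and 3.19 CPM (1.76 ± 1.00, adjusted p = 0.27), so that 1 WT library was close to the mutants. The remaining 34 members tested had log2 fold changes between -1.23 and 1.69, and the receptors were all among them.

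Of 70 other genes of the pathway, 53 were tested in mESCs, 2 rose and 3 fell. Tdgf1, the co-receptor CRIPTO that Nodal requires, fell from 253 and 518 CPM to 137, 120 and 97.7 CPM (-1.71 ± 0.31, adjusted p = 0.030). Thbs1, which can activate latent TGF-beta, rose from 85.6 and 76.5 CPM to 177, 294 and 164 CPM (1.38 ± 0.29, adjusted p = 0.038). Twsg1, a partner of chordin in BMP binding, rose from 68.3 and 84.1 CPM to 164, 119 and 179 CPM (1.01 ± 0.24, adjusted p = 0.047). The oocyte ligand Bmp15 and the follistatin-like gene Fstl5 fell from levels that were under 1.2 CPM in every mESC library. The median log2 fold change of the 53 was 0.18.

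**Figure D3:**
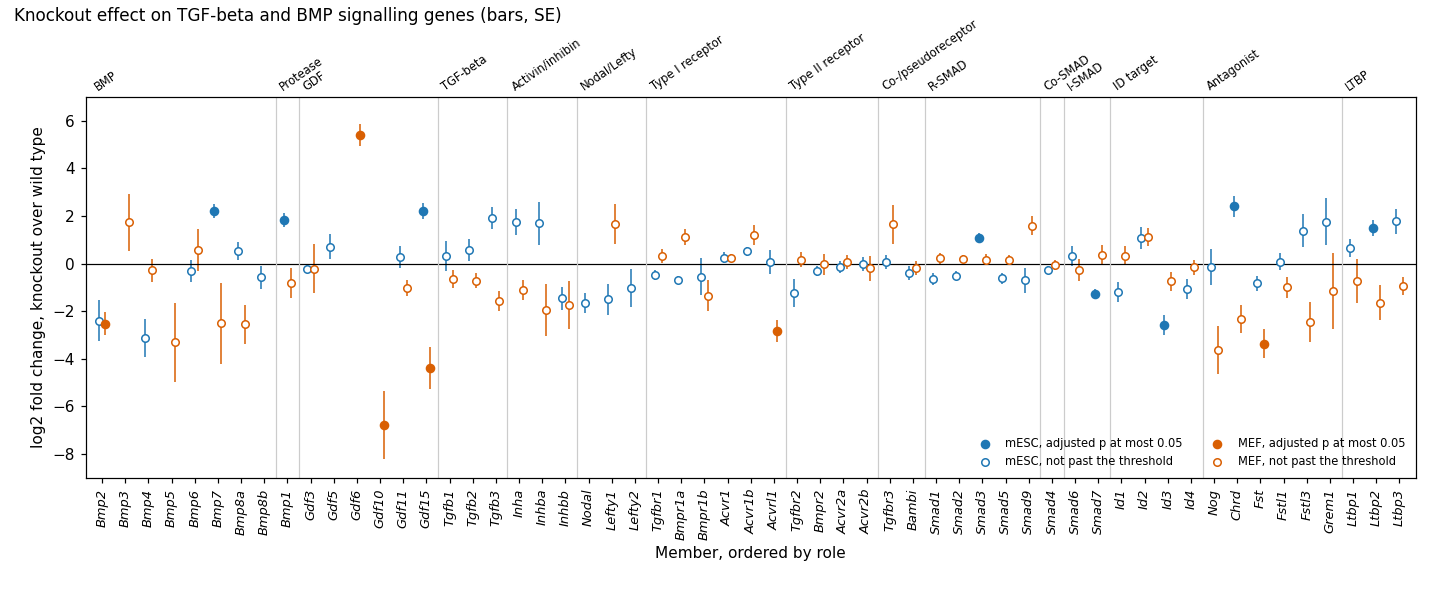
log2 fold change of Atxn7l3-/- over WT for each member tested, ordered by role, in mESCs (blue, n = 2 and 3) and MEFs (orange, n = 3 and 3, groups as labelled), with bars of 1 SE; filled points have an adjusted p of 0.05 or less. In mESCs 6 filled points are above 0 and 2 below, in MEFs 1 (Gdf6) is above and 5 below, and Bmpr2, Acvr2a, Acvr2b and Smad4 lie close to 0 in both cell types.

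The second comparison was within MEFs. There a single member, the joint-associated ligand Gdf6, was upregulated in the libraries labelled Atxn7l3-/-, while the ligands Bmp2, Gdf10 and Gdf15, the endothelial-type receptor Acvrl1 and the activin antagonist Fst were down-regulated. Thus 1 of 53 members rose and 5 fell, where 5.01% of all genes rose and 4.39% fell. The median log2 fold change was -0.29 over the members, with 19 above 0 and 34 below, and -0.06 over all genes. MEF libraries of the same number deviated together, and with the number as a block 2 members rose and 9 fell, where 5.5% of all genes rose and 8.49% fell. The pairing by number was inferred from these same counts (r = 0.473, 0.161 and 0.240 over genes). The calls gained were Tgfb3, Inhba, Inhbb and Fstl3, all lower, and Tgfbr3, higher, and none was lost. Without the block, edgeR's count of members that fell was 0 without labelled Atxn7l3-/- library 1, without library 2 or without WT library 3, with 11 to 13 lower at an unadjusted p under 0.05, and it was 1 without WT library 1 and 8 without labelled Atxn7l3-/- library 3. Over all genes edgeR called 701 lower of 15958 with all 6 libraries. In these fits, in the same order, it called 90 of 16695, 86 of 16644, 77 of 16414, 191 of 16268 and 1049 of 16769 genes lower.

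Gdf6, a BMP-type ligand known for joint, skull and eye patterning, rose more than any other member in either cell type. It was at 9.10, 8.84 and 4.60 CPM in WT MEFs and at 419, 179 and 355 CPM in the labelled Atxn7l3-/- MEFs. Every mutant library was far above all WT libraries, 42.2-fold on the means, with a log2 fold change of 5.40 ± 0.48 (n = 3 and 3, adjusted p = 0.0059). This was the only one of the 6 calls that held when any 1 of the 6 libraries was left out. In mESCs Gdf6 had at most 3 counts in any library, and the tables place it on chromosome 4 (9844372 to 9862345, mm10). The mesothelial gene Upk3b was also higher, between 4.20 and 18.3 CPM in WT and between 1712 and 2294 CPM in the labelled Atxn7l3-/- MEFs. In labelled Atxn7l3-/- libraries 1, 2 and 3 Upk3b was at 2294, 1793 and 1712 CPM and the mesothelial gene Wt1 at 181, 233 and 114 CPM. The mesothelial gene Msln was at 1191, 478 and 765 CPM in these libraries. Msln had the order of Gdf6 while Upk3b and Wt1 did not, and a link between these genes was not tested.

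The other called ligands of MEFs fell. Bmp2, a BMP known for bone and heart formation, was at 3.45, 2.65 and 2.66 CPM in WT and at 0.669, 0.297 and 0.549 CPM in the labelled Atxn7l3-/- MEFs (-2.53 ± 0.48, adjusted p = 0.031). Its log2 fold change in mESCs, from few reads, was -2.40. The difference between the cell types, tested below, was -0.073 (edgeR adjusted p = 0.995). Gdf10, also named BMP3B, was at 17.9, 37.5 and 3.84 CPM in WT and at 0.415, 0 and 0.110 CPM in the mutants (-6.78 ± 1.42, adjusted p = 0.038). The WT libraries of Gdf10 differed widely among themselves, yet the lowest of them was above every mutant library. Gdf15 was at 3.38, 2.82 and 8.94 CPM in WT and at 0.346, 0.0456 and 0.330 CPM in the mutants (-4.38 ± 0.89, adjusted p = 0.036), and correction for GC content moved its adjusted p to 0.053. Its direction was thus the reverse of that in mESCs.

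Acvrl1, the type I receptor ALK1 that binds BMP9 and is known from endothelium, fell from 24.9, 20.1 and 56.2 CPM to 4.11, 4.52 and 5.69 CPM. The mutant libraries were close together at 14.1% of the WT mean (-2.82 ± 0.45, adjusted p = 0.021), and the summed endothelial markers were between 20.0 and 79.5 CPM in WT and between 6.83 and 23.2 CPM in the labelled Atxn7l3-/- MEFs. Fst, which encodes follistatin and neutralises activins, fell from 251, 174 and 465 CPM to 14.3, 20.8 and 51.8 CPM. The highest mutant library was below the lowest WT library by a wide margin (-3.36 ± 0.61, adjusted p = 0.027).

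With the block, the activin subunits joined the genes that fell. Inhba was at 549, 101 and 1202 CPM in WT libraries 1, 2 and 3 and at 105, 29.5 and 346 CPM in the labelled Atxn7l3-/- libraries of the same numbers. The groups overlapped, but at each number the mutant library was the lower one, which choosing genes by the blocked test favours (blocked log2 fold change -1.99, adjusted p = 0.019, against 0.25 without the block). Inhbb was at 39.3, 9.15 and 69.3 CPM in WT and at 16.3, 1.41 and 17.2 CPM in the mutants (blocked adjusted p = 0.028, against 0.26). Tgfbr3, the co-receptor betaglycan, was the gain in the other direction, at 10.1, 40.1 and 6.70 CPM in WT and at 32.1, 112 and 33.6 CPM in the mutants (blocked adjusted p = 0.021, against 0.20).

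Tgfb3 was at 296, 484 and 477 CPM in WT and at 93.6, 106 and 222 CPM in the labelled Atxn7l3-/- MEFs. The groups did not overlap, and the log2 fold change of -1.57 ± 0.40 had an adjusted p of 0.056 without the block and 0.030 with it. Fstl3, a follistatin-like antagonist of activins, was at 17.4, 18.7 and 56.2 CPM in WT and at 3.16, 1.76 and 12.1 CPM in the mutants (-2.44 ± 0.84, adjusted p = 0.10, and 0.019 with the block). Of the exonic bases of Fstl3, 47.3% lie opposite exons of the antisense gene Prss57, and whether the counting used strand is not given in the sources used here.

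**Figure D4:**
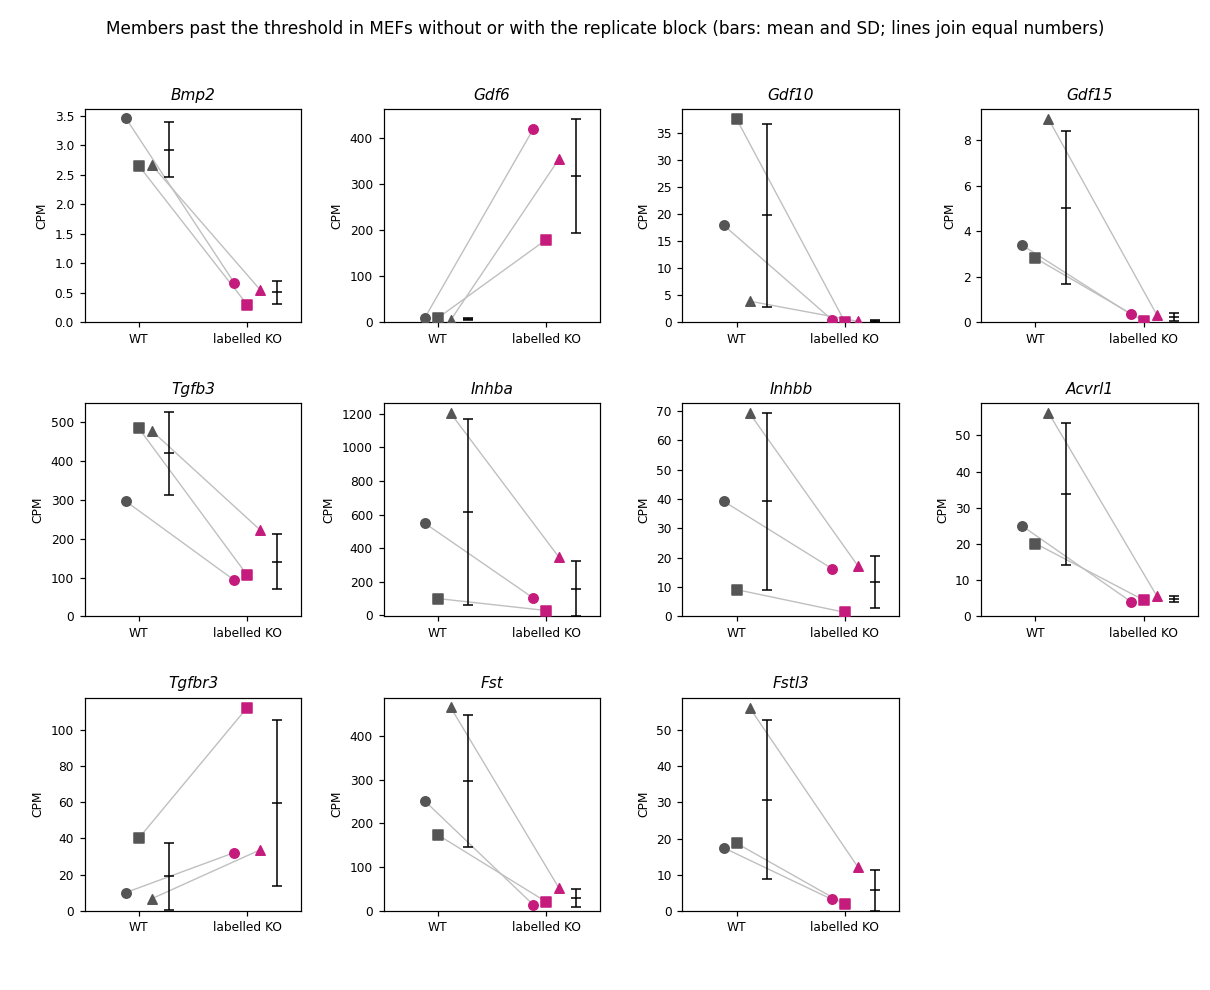
Level in CPM of the 11 members past the threshold in MEFs without or with the replicate number as a block, 1 panel per gene with its own axis, for WT (grey, n = 3) and labelled Atxn7l3-/- libraries (pink, n = 3); circles, squares and triangles mark libraries 1, 2 and 3, lines join equal numbers and bars give the mean and SD. Gdf6 and Tgfbr3 are higher and the other 9 lower in each labelled Atxn7l3-/- library than in the WT library of the same number, while the groups overlap for Inhba, Inhbb and Tgfbr3.

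Non-overlapping MEF groups with at least a 2-fold difference were found for 4 of the 53 members in the higher direction and 12 in the lower, where 8.69% of all genes were higher and 13.9% were lower. The higher ones besides Gdf6 were Bmpr1a, Smad9 and Id2, none of them past the threshold. Bmpr1a was at 243, 174 and 160 CPM in WT and at 400, 579 and 276 CPM in the labelled Atxn7l3-/- MEFs (1.12 ± 0.33, adjusted p = 0.076). Smad9, the third BMP receptor SMAD, was at 9.76, 7.95 and 13.2 CPM against 22.2, 49.7 and 21.3 CPM (1.59 ± 0.41, adjusted p = 0.058). Id2 was at 159, 136 and 96.9 CPM against 258, 428 and 171 CPM (1.13 ± 0.38, adjusted p = 0.097), and in all 3 genes labelled Atxn7l3-/- library 2 was the highest.

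The 12 lower ones included 4 of the 6 antagonists, 3 of the 5 GDF ligands and 2 of the 6 type I receptors tested. The BMP ligands, the TGF-beta ligands and the activin and inhibin subunits had 1 each. All 6 antagonists had negative log2 fold changes in MEFs, from -3.63 to -0.999, although Fst was the only one past the threshold without the block. Nog, which encodes the BMP antagonist noggin, was at 10.53, 10.9 and 14.6 CPM in WT and at 2.03, 0.0684 and 0.797 CPM in the labelled Atxn7l3-/- MEFs (adjusted p = 0.067). Chrd was at 6.08, 18.0 and 7.96 CPM against 2.10, 1.21 and 3.13 CPM (-2.32 ± 0.59, adjusted p = 0.055). Grem1 was the least even of them: it was at 821, 203 and 792 CPM in WT and at 65.0, 1.64 and 752 CPM in the mutants, so that labelled Atxn7l3-/- library 3 was at the WT level (-1.15 ± 1.59, adjusted p = 0.64). The mesenchymal gene Prrx1 was likewise lowest in mutant library 2 and highest in mutant library 3, at 465, 573 and 485 CPM in WT and 27.8, 6.16 and 341 CPM in the mutants, but there library 3 was below every WT library.

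Library 3 of the labelled Atxn7l3-/- MEFs was inside the WT range, with the other 2 outside it on the same side, for 8 of the 53 members and for 15.9% of all genes. The WT MEF libraries themselves differed more in these genes than in most. The ratio of the highest to the lowest WT MEF library had a median of 2.25 over 51 members and 1.73 over 13556 genes, and it was above 4 for 19.6% of these members and 12.3% of these genes. The growth and differentiation factor Gdf11 fell short of the threshold, at 46.9, 34.9 and 38.8 CPM in WT against 17.6, 12.3 and 29.1 CPM (adjusted p = 0.097). Inha, at 3.77, 3.77 and 2.31 CPM against 1.38, 1.21 and 1.95 CPM (adjusted p = 0.13), and the BMP receptor Bmpr1b, at 6.85, 6.02 and 10.4 CPM against 3.32, 0.844 and 4.97 CPM (adjusted p = 0.20), did so too. The remaining 37 members tested had log2 fold changes between -3.31 and 1.73. Among them, the 4 type II receptors were between -0.19 and 0.17 and Smad4 was at -0.06.

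Of the other pathway genes, 53 were tested in MEFs and 8 passed the threshold, all of them lower, and their median log2 fold change was -0.92. Eng, the co-receptor endoglin that acts with ALK1, fell from 18.7, 24.7 and 37.3 CPM to 1.82, 0.867 and 1.70 CPM (-4.20 ± 0.46, adjusted p = 0.0092), alongside Acvrl1. Ski, a nuclear repressor of SMADs, fell from 269, 264 and 278 CPM to 117, 153 and 126 CPM (-1.04 ± 0.19, adjusted p = 0.029). The antagonist Nbl1 fell from 120, 123 and 146 CPM to 34.7, 49.0 and 75.1 CPM (-1.29 ± 0.31, adjusted p = 0.047), and the BMP target Hey1 fell from 14.0, 12.4 and 8.96 CPM to 1.18, 0.228 and 0.714 CPM (-4.06 ± 0.66, adjusted p = 0.021). The other 4, Bmp15, Hjv, Sost and Vwc2, were under 2 CPM in every MEF library.

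The third comparison asked whether the knockout effect differed between the cell types, as an interaction term in 1 fit of all 11 libraries. It was called for 12 of the 55 members tested, 3 with the more positive effect in MEFs and 9 with the more negative one, where 6.14% of all genes were more positive and 5.27% more negative. The 3 were Gdf6 and the BMP signal carriers Bmpr1a and Smad9. The 9 were the ligands Gdf5, Gdf15, Tgfb3 and Inha, the receptor Acvrl1, the antagonists Chrd and Fst and the matrix proteins Ltbp2 and Ltbp3. The median difference was -0.11 over the members and -0.09 over all genes.

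Of the 10 that were tested in both cell types, 9 had log2 fold changes of opposite sign, which choosing members by a large difference favours, and Gdf15 alone passed the threshold in both. Gdf15 had the smallest adjusted p of them, with 2.20 in mESCs and -4.38 in MEFs (difference -6.52 ± 1.01, adjusted p = 0.0060). It was called on its own in both cell types, so that the same gene rose past the threshold in one and fell past it in the other. Tgfb3 followed, with 1.92 in mESCs and -1.57 in MEFs (-3.45 ± 0.56, adjusted p = 0.0069), and Chrd, with 2.41 and -2.32 (-4.66 ± 0.80, adjusted p = 0.0091). For Fst both log2 fold changes were negative, -0.83 and -3.36, and the difference was one of size (-2.48 ± 0.69, adjusted p = 0.044).

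In mESCs the log2 fold change of Acvrl1 was 0.06 ± 0.51, at 2.06 and 1.20 CPM in WT and 1.29, 1.64 and 2.16 CPM in the mutants, and it fell in MEFs (difference -2.83 ± 0.66, adjusted p = 0.025). Ltbp3 (1.78 and -0.95) and Ltbp2 (1.49 and -1.64) had differences of -2.67 ± 0.60 and -3.09 ± 0.89 with adjusted p of 0.022 and 0.048. Bmpr1a (-0.69 and 1.12) and Smad9 (-0.70 and 1.59) had positive differences of 1.88 ± 0.40 and 2.35 ± 0.63, with adjusted p of 0.019 and 0.039. Inha (1.75 and -1.12) had a difference of -2.79 ± 0.69 with an adjusted p of 0.030. With the replicate block the calls of Inha and Smad9 were lost, with adjusted p of 0.094 and 0.11. GC correction lost Inha, Smad9, Acvrl1 and Ltbp2, with adjusted p of 0.095, 0.057, 0.070 and 0.076. The block with GC correction lost these 4 and also Gdf6, Bmpr1a and Ltbp3, with adjusted p of up to 0.204.

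Gdf5 and Gdf6, close relatives that pattern joints, were tested for the difference although each had few reads in 1 cell type. Gdf5 was between 0.558 and 1.48 CPM in mESCs and at 0.507, 1.03 and 0.131 CPM in WT MEFs, and it had at most 1 count in each labelled Atxn7l3-/- MEF library, which places the MEF level at least 7.59-fold lower at a floor of 3 counts per library. An antisense gene, Gm15557, covers 40.3% of its exonic bases. Smad7 and Id3, which fell in mESCs, had log2 fold changes of 0.37 and -0.75 in MEFs, and their differences of 1.70 ± 0.50 and 1.89 ± 0.56 had adjusted p of 0.050 and 0.053, just above the threshold. Without WT mESC library 1, edgeR called 0 differences, with 10 more positive and 12 more negative at an unadjusted p under 0.05, and without WT mESC library 2 it called 0 more positive and 2 more negative, with 10 and 15 at an unadjusted p under 0.05. Over all genes these 2 fits called 197 more positive and 56 more negative of 20240, and 244 and 78 of 20269. With all 11 libraries the counts were 1187 and 1018 of 19326 genes.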

How the data were processed

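Poly(A) RNA-seq was analysed from 11 libraries in 4 groups, taken from the titles of the samples. The authors deposited 1 table per cell type with raw counts per gene, a signal column per library (counts after their normalization divided by the median transcript length), and fold changes and p-values of their own comparisons, which were not used. Per the submitters' processing notes, bcl2fastq 2.17.1.14, cutadapt 1.10, STAR 2.5.3a, HTSeq 0.6.1p1 and DESeq2 1.16.1 were used with build mm10; the strand setting of the counting is not given in the sources used here. The paper's methods state that 1 WT mESC dataset was excluded; it was not analysed here.

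The deposited counts were tested in R 4.3.3 with edgeR 4.0.16 (filterByExpr, TMM, glmQLFit, glmQLFTest, Benjamini-Hochberg over all genes tested, threshold 0.05), within each cell type and, for the wild-type cell types and the interaction, in 1 fit of 11 libraries over genes in both tables. SE is the log2 fold change divided by the square root of F. The scripts were tested on simulated data. Levels per kb used merged exons of GENCODE M21. DESeq2 1.42.0, other scalings and filters, GC correction, the replicate block and leaving out each library were alternatives. Depth was 34515342 to 49602605 counts per library, so that 3 counts, the floor, lie between 0.0605 and 0.0869 CPM and cover counting error only. The study calls the libraries biological replicates, but the labels do not say which embryos they came from, so p-values measure the spread between these libraries. Same-numbered MEF libraries deviated together from their group means (r = 0.473, 0.161 and 0.240 over genes), so that the numbers were taken as pairing them; in mESCs r was 0.0078 and -0.172.

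Members called in either knockout comparison or in the interaction, and members at least 2-fold apart with no overlap and a mean of at least 1 CPM, were given by library, as were other pathway genes that were called. The members, gene lists and marker lists were chosen with earlier results of these data known.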

Additional observations from a re-analysis of the deposited data

Results flagged for a closer look

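The results listed here were picked out because the knockout effect differed between mESCs and MEFs by the interaction term of edgeR (adjusted p of 0.05 or less). Values are the log2 fold change in MEFs minus that in mESCs. The difference was -6.34 ± 1.39 for Gdf5, which had at most 1 count in each labelled Atxn7l3-/- MEF library, and 6.13 ± 1.27 for Gdf6, which had at most 3 counts in each mESC library. These 2 values therefore depend on the prior count of the fit. It was -6.52 for Gdf15, -3.45 for Tgfb3, -2.79 for Inha, -2.83 for Acvrl1 and -4.66 for Chrd. For Fst it was -2.48, for Ltbp2 -3.09 and for Ltbp3 -2.67, and the positive differences were 1.88 for Bmpr1a and 2.35 for Smad9. Groups held 2 or 3 libraries, so that no library could be tested as standing apart within its group.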

How the results depend on the processing

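No named result that passed the threshold in the main edgeR fit changed sign, and no value of the opposite sign passed it. A change of sign was seen in 35 values of 12 results. Of these 12, Smad7 between the WT cell types passed when another library was left out, with its sign unchanged (0.741, edgeR adjusted p = 0.040). In mESCs (6 members higher and 2 lower), the single fit of all 11 libraries called 1 higher, and the count lower was 4 without a filter, 10 with DESeq2, and 4 with the replicate block, alone or with GC correction. Over all genes, edgeR called 548 higher and 690 lower in mESCs. The single fit called 144 and 302, no filter 1390 and 1605, and DESeq2 1752 and 1684. The block called 712 and 723, and with GC correction 756 and 759. In MEFs (1 higher and 5 lower), the count higher was 2 without a filter, 2 with the replicate block, alone or with GC correction, 4 in the single fit and 5 with DESeq2. The MEF count lower was 9 without a filter, 3 with at least 10 counts in every library, 12 with DESeq2, 9 with the replicate block, 8 with the block and GC correction and 11 in the single fit. Over all genes, edgeR called 800 higher and 701 lower in MEFs. No filter gave 909 and 987, at least 10 counts 514 and 332, and DESeq2 1723 and 2213. The block gave 877 and 1355, with GC correction 740 and 926, and the single fit gave 1513 and 2056. DESeq2 called 9 more positive and 17 more negative differences between the cell types (3 and 9 in edgeR). Over all genes it called 2073 more positive and 2216 more negative (1187 and 1018 in edgeR). The cause of these shifts was not tested.

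Leaving out 1 library gave 0 to 6 higher and 0 to 4 lower in mESCs, 1 to 4 higher and 0 to 8 lower in MEFs, 0 to 5 more positive and 0 to 12 more negative differences, and 30 to 38 higher and 3 to 5 lower in WT MEFs against WT mESCs. Over all genes these ranges were 0 to 1061 and 0 to 1181 in mESCs, and 120 to 989 and 77 to 1049 in MEFs. They were 197 to 1531 and 56 to 1609 for the differences, and 2991 to 5263 and 3527 to 5278 between the WT cell types. In mESCs same-numbered libraries did not deviate together, and the block added Bmp4, Nodal and Inhba to the calls and lost 0. In the interaction, the block added Bmp4, Bmp1, Inhba, Tgfbr3 and Fstl3 and lost Inha and Smad9, and testing genes listed in either table lost Ltbp2. With 2 or 3 libraries per group, the smallest absolute log2 fold change called among the members was 1.09 in mESCs (Smad3), and in MEFs it was that of Bmp2, which fell by 2.53 on the log2 scale.

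The log2 values that changed sign were these. With GC correction alone and then with the block and GC correction, Acvrl1 in mESCs was -0.190 and -0.234, and the differences between the cell types were 0.0586 and 0.127 for Bmp2, 0.746 and 0.371 for Inhbb and -0.318 and -0.654 for Id2. With the block alone Acvrl1 in mESCs was -0.109 and the difference of Id2 was -0.279. Leaving out 1 library gave ranges that crossed 0. In mESCs they were -0.0147 to 0.480 for Gdf11, -1.03 to 0.130 for Bmpr1b, -0.277 to 0.492 for Acvrl1 and -0.514 to 0.323 for Nog, and in MEFs -0.724 to 0.335 for Bmp4 and -0.386 to 0.112 for Id4. For the differences they were -0.599 to 0.987 for Bmp2, -0.718 to 0.463 for Inhbb, -1.45 to 0.192 for Bmpr1b and -0.525 to 0.579 for Id2. Between the WT cell types they were -0.940 to 0.325 for Gdf5 and -0.0544 to 0.741 for Smad7.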
